A study of Mus musculus with 6 samples.

Results

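The proteasome is the large protease that degrades proteins marked with ubiquitin. Its barrel-shaped core particle is built from alpha subunits (Psma genes) and beta subunits (Psmb genes). The regulatory particle that caps the barrel holds ATPases that unfold the substrate (Psmc genes) and non-ATPase subunits that bind it and remove the ubiquitin (Psmd genes), and other genes of the family encode activators (Psme), an inhibitor (Psmf1) and assembly chaperones (Psmg). Ubiquitin-conjugating enzymes, the E2 enzymes of the Ube2 genes, take ubiquitin or a ubiquitin-like protein from an activating enzyme and pass it on with the help of a ligase. These genes are expressed in nearly all cells, and most of their promoters are rich in G and C. KLF3 is a zinc finger repressor that binds CACCC boxes and related GC-rich sequences and recruits the corepressor CtBP through a short motif in its N-terminal part.

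Binding of KLF3 and of 2 mutants near these genes was taken from chromatin immunoprecipitation and sequencing (ChIP-seq) in Klf3-/- murine embryonic fibroblasts (MEFs) of C57BL/6 origin. Each line carried a retrovirus (MSCV) that expressed 1 V5-tagged protein under puromycin selection: full-length KLF3, ΔDL, in which the residues DL of the CtBP contact motif PVDLT are replaced by AS, or DBD, which keeps only the zinc fingers and a putative nuclear localization signal. Each line was a single clone, so a difference between constructs and a difference between clones cannot be told apart. Anti-V5 precipitates of 3 constructs were sequenced with 2 replicates and a paired input each, and no line without a V5 protein was part of the lists used. The members are the peaks whose assigned gene has a Psm name from Psma to Psmg or a Ube2 name: 71 of the 22188 peaks in the table of all peaks, named for 18 Psm and 25 Ube2 genes. Of these, 27 were annotated as promoter peaks, each at a different gene, and 44 lay elsewhere at 27 genes, whereas 4452 of all peaks were promoter peaks and 17736 were not. A peak takes the name of the gene with the nearest start, however far away. Psmc3ip, which encodes a recombination factor, and Ube2cbp, whose product binds an E2 enzyme, match the names without belonging to either family.

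The height of a peak is the log2 number of tags in 400 bp, counted by the authors over both replicates of a construct together and scaled to 100 M tags. Heights thus carry no replicate error, and differences between constructs are described without a test. A counting interval of 95% is given instead, from the exact binomial distribution of the tags behind both heights, which covers counting error only. Each replicate was also called on its own. The scores in those lists are whole multiples of 1 tag, which gave between 1.77 M and 18.1 M tags per replicate, and the least deep was ΔDL replicate 1, where a called peak could hold as few as 4 tags.

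The promoter peaks of both families lay close upstream of the start, at GC-rich sequence. The median distance of the peak centre from the RefSeq start was −91 bp, and 15 of 27 centres lay within 100 bp upstream of it (55.6%, against 46.2% of all promoter peaks). Their median G+C content was 67.1%, from 46.9% at Psmb10 to 79.8% at Ube2q2, beside 63.3% over all promoter peaks. The mean PhastCons conservation score of the peak, deposited for 23 of the 27, had a median of 0.26 beside 0.22 over all promoter peaks that have one. In 22 of 27 (81.5%, Wilson interval 63.3% to 91.8%) the 100 bp around the centre held a 6-base KLF core, one of ACACCC or ACGCCC or CCACCC or CCGCCC on either strand, and so did 83.1% of all promoter peaks. The nearest core lay a median of 12 bp from the centre of a member peak and 15.5 bp over all promoter peaks. With the 5 bases CACCC alone, which lie inside ACACCC and CCACCC, the count was 13 of 27 (48.1%, against 35.4% of all promoter peaks). By family, a KLF core was in 9 of 11 Psm (81.8%) and 13 of 16 Ube2 promoters (81.2%), and CACCC in 3 of 11 and 10 of 16.

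The sequences around the peak centre of 9 promoter peaks are shown for the contrasts described later: the E2 genes Ube2d1, Ube2z, Ube2g1 and Ube2a, at which ΔDL lay below KLF3 by 2-fold or more, and the proteasome genes Psmd7, Psmd9, Psmb1, Psmd5 and Psmb10, at which ΔDL was within 2-fold of KLF3. Each is read from mm9 on the strand of the gene, within 100 bp around the centre, and ends before the start and before any annotated exon. Capitals mark the KLF cores on either strand, so GGGCGG and GGGTGG are cores read from the other strand.
Ube2d1, chr10:70748011-70748080, minus strand: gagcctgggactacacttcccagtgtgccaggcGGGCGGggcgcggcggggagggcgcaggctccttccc
Ube2z, chr11:95926703-95926790, minus strand: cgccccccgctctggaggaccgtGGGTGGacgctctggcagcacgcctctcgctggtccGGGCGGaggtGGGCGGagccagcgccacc
Ube2g1, chr11:72420573-72420672, plus strand: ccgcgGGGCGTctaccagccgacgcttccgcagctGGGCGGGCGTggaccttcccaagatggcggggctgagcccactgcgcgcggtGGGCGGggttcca
Ube2a, chrX:34414220-34414319, plus strand: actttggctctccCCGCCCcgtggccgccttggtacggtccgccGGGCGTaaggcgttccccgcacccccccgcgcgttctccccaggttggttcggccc
Psmd7, chr8:110112383-110112469, minus strand: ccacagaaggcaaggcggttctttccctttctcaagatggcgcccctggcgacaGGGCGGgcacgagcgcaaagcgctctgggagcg
Psmd9, chr5:123678114-123678198, plus strand: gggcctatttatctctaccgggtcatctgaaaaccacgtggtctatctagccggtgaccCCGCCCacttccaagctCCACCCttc
Psmb1, chr17:15635254-15635353, minus strand: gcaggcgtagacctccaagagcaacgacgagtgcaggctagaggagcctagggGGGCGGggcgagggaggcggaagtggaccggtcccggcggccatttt
Psmd5, chr2:34726503-34726602, minus strand: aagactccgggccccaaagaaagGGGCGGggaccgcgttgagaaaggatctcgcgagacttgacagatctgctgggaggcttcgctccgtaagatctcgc
Psmb10, chr8:108462406-108462505, minus strand: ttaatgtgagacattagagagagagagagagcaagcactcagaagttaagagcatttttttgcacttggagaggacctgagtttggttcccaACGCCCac

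In these stretches of 70 to 100 bp, Ube2g1 and Ube2z hold 4 and 3 cores, and Ube2a and Psmd9 hold 2 each. Ube2d1, Psmd7, Psmb1, Psmd5 and Psmb10 hold 1 each. Over the whole 400 bp, Psmf1 was the only promoter member without a core, and the other 26 (96.3%) had at least 1, as did 97.0% of all promoter peaks. The median number of cores in 400 bp was 3.0 in the member promoters and 4.0 over all promoter peaks.

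**Figure D1:**
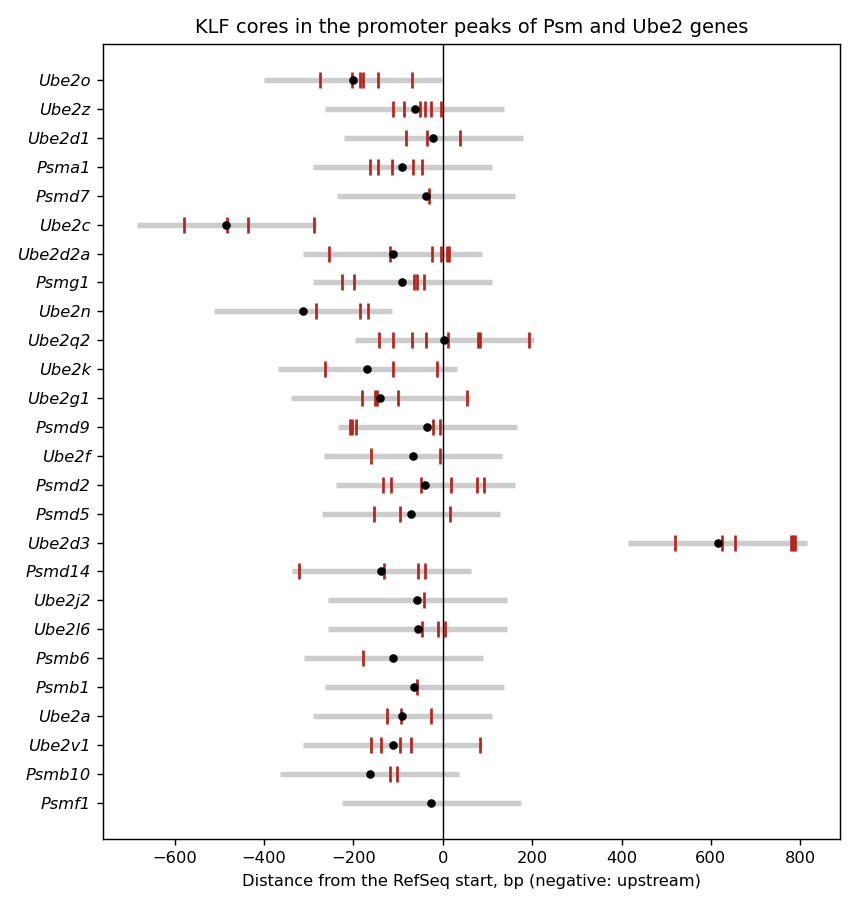
KLF cores (red ticks, either strand) in the 400 bp peaks (grey bars, centre as a black dot) of 26 promoter members, by distance from the RefSeq start in bp, ordered by KLF3 height from top to bottom. Most centres lie between the start and 200 bp upstream, and the Ube2d3 peak lies 615 bp downstream of the Ube2d3 start.

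Letters of other factors that act at housekeeping promoters were searched on both strands of the same 400 bp peaks. The ETS core CCGGAA was in 10 of 27 member promoters (37.0%) and in 35.7% of all promoter peaks. The CCAAT box was in 5 (18.5%) and in 41.3% of all promoter peaks. The antioxidant response element TGACNNNGC, the kind of site through which NFE2L factors act on proteasome genes, was in 7 (25.9%) and in 19.4% of all promoter peaks. The 7 were 4 of 11 Psm promoters (Psma1, Psmd7, Psmd9 and Psmb6) and 3 of 16 Ube2 promoters. At Psmd9 the element overlaps the first KLF core of the printed sequence. The Wilson interval of each of these shares for 27 members spans more than 25 percentage points.

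Nearly all of these promoter peaks were listed for KLF3. Of the 27 promoter members, 26 were called in both KLF3 replicates, where 96.5% of all promoter peaks were. A peak was listed for a construct only when both of its replicates had a call, so this count follows from the listing. KLF3 heights ran from 6.98 at Psmf1 to 9.39 at Ube2o, with a median of 8.15 beside 8.32 over all promoter peaks.

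The 3 highest KLF3 peaks among the promoter members were at E2 genes. Ube2o, a large enzyme that joins E2 and ligase activity, had heights of 9.39, 8.97 and 5.71 for KLF3, ΔDL and DBD, in that order. Its peak held 32 and 89 tags in KLF3 replicates 1 and 2, none called in ΔDL replicate 1 and 38 in ΔDL replicate 2. KLF3 was thus high in both replicates, whereas ΔDL rested on the deeper of its replicates.

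Ube2z, which is charged by the activating enzyme Uba6, followed with 9.33 for KLF3, 8.26 for ΔDL and 5.58 for DBD. Its peak contained 35 and 79 KLF3 tags and 8 and 19 ΔDL tags. Ube2d1, an E2 that works with many ligases, had 9.28, 8.11 and 5.43, with 44 and 80 KLF3 tags and 5 and 17 ΔDL tags. Both ΔDL replicates had a call at these promoters, and tags are not comparable between replicates of unequal depth.

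Next in order came the alpha subunit gene Psma1 (8.85 for KLF3, 8.14 for ΔDL and 5.98 for DBD) and Psmd7, a scaffold subunit of the regulatory particle lid (8.74, 8.56 and 5.69). Psma1 held 16 and 50 KLF3 tags and 16 ΔDL tags in replicate 2 alone. Psmd7 held 22 and 59 KLF3 tags and had a call in either ΔDL replicate, of 6 and 34 tags. ΔDL thus came nearer to KLF3 at Psmd7 than at Psma1 on this scale.

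Ube2c, the E2 of the anaphase-promoting complex, had heights of 8.55, 7.79 and 5.11 for KLF3, ΔDL and DBD. Ube2d2a had 8.52, 7.65 and 4.51, and Psmg1, an assembly chaperone of the core particle, had 8.51, 7.61 and 5.41. At each of these promoters the order was KLF3 above ΔDL above DBD, and neither DBD replicate had a call.

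**Figure D2:**
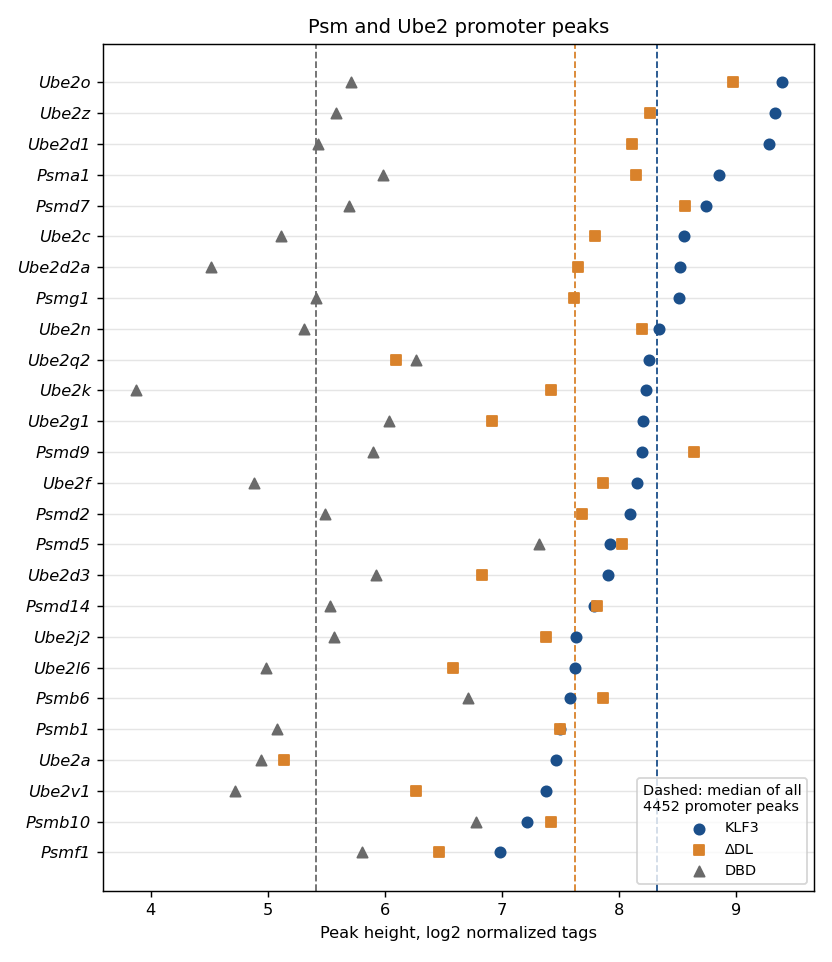
Peak heights (log2 normalized tags in 400 bp) of 26 promoter members for KLF3 (circles), ΔDL (squares) and DBD (triangles), with the median of all 4452 promoter peaks for each construct as a dashed line. DBD is lowest at 25 of 26 promoters, the exception being Ube2q2, where ΔDL at 6.09 is just under DBD at 6.26, and the highest DBD values are those of Psmd5, Psmb10 and Psmb6.

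In ΔDL, which lacks the CtBP contact, peaks were lower than those of KLF3 by 2-fold or more at a number of E2 promoters and at no proteasome promoter with the authors' scaling. ΔDL fell short of KLF3 by 2-fold or more at 8 of 27 promoter members, where 33.7% of all promoter peaks were, and at least 2-fold higher at 0 of 27 (0.854% of all promoter peaks). All 8 were Ube2 genes: 8 of 16 Ube2 promoters and 0 of 11 Psm promoters. The median difference of ΔDL from KLF3 was −0.96 on the log2 scale at the Ube2 promoters (order-statistic interval −1.17 to −0.29) and 0.00 at the Psm promoters (−0.71 to 0.28). It was −0.68 over all promoter peaks. The split by family was made after the values were seen and was not tested. These differences depend on the scaling. When each construct was instead given an equal median height at peaks that all 3 were called for, ΔDL heights moved by −1.06, and 15 of 16 Ube2 and 7 of 11 Psm promoters were at least 2-fold lower, against 85.6% of all promoter peaks. A shift that is the same for all peaks leaves the difference between the family medians as it is.

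The proteasome promoters fell into those with ΔDL above and those with ΔDL below KLF3 in about equal numbers. With the authors' scaling ΔDL was above KLF3 at 5 of 11, below it at 5 and level at Psmb1 (7.49 for each). Over all 4452 promoter peaks ΔDL was above KLF3 at 717 and below it at 3720. Psmd9, an assembly chaperone of the regulatory particle, had the largest positive difference, 0.45 (counting interval −0.10 to 1.03), with heights of 8.19 for KLF3 and 8.64 for ΔDL. Its peak held 12 and 41 KLF3 tags and 28 ΔDL tags in replicate 2, without a call in ΔDL replicate 1.

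Psmb6, a catalytic beta subunit, followed with 7.58 for KLF3 and 7.86 for ΔDL, a difference of 0.28 (−0.47 to 1.00). The largest negative difference among Psm promoters was −0.90 at Psmg1 (−1.62 to −0.21). With the authors' scaling the counting interval lay below KLF3 at 2 of 11 Psm promoters, Psma1 and Psmg1, and at 11 of 16 Ube2 promoters. At none of the 27 did it lie above KLF3. No share of all promoter peaks is given for these intervals. With heights scaled to the same median, ΔDL was below KLF3 at all 27, and at 4420 of all 4452 promoter peaks.

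The largest differences at E2 promoters were at Ube2a and Ube2q2. Ube2a, a homologue of yeast Rad6 that ubiquitinates histone H2B, had 7.46 for KLF3, 5.14 for ΔDL and 4.94 for DBD, a difference of −2.32 for ΔDL (−4.29 to −0.88). Ube2q2 had 8.25, 6.09 and 6.26, a difference of −2.16 (−3.71 to −1.22). Neither had a call in any ΔDL or DBD replicate, while KLF3 was called in both replicates of each, with 8 and 17 tags at Ube2a and 12 and 34 at Ube2q2.

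Ube2g1 had the third largest difference, −1.29 (−2.25 to −0.46), with heights of 8.20 for KLF3 and 6.91 for ΔDL. The other Ube2 promoters past 2-fold were Ube2d1, Ube2v1, Ube2z, Ube2d3 and Ube2l6, with differences from −1.17 to −1.04, just beyond the threshold. Ube2d2a at −0.87 and Ube2k at −0.81 were the nearest on the other side of it. At 3-fold only Ube2a and Ube2q2 were left, and at 1.5-fold there were 11 of 16 Ube2 and 2 of 11 Psm promoters. The shares of all promoter peaks at these folds are not given here.

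**Figure D3:**
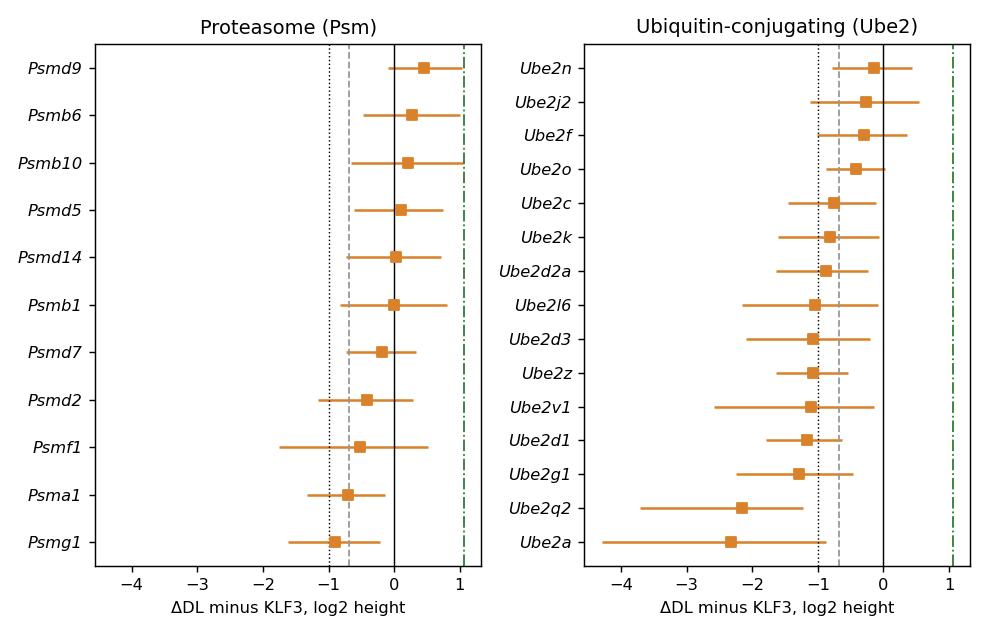
Difference of ΔDL from KLF3 in log2 height at 11 Psm (left) and 15 Ube2 (right) promoter members, with exact 95% counting intervals as bars. The dotted line is 2-fold lower, the dashed grey line the median of all promoter peaks (−0.68), and the green line the value that equals no difference once heights are scaled to the same median. All Psm points lie right of the dotted line and 8 of 15 Ube2 points lie left of it.

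Median KLF3 heights were 7.92 at the Psm and 8.22 at the Ube2 promoters, so the counts were also taken within ranges of KLF3 height. Among promoter peaks with a KLF3 height from 6 to below 8, ΔDL was at least 2-fold lower at 0 of 6 Psm, 4 of 6 Ube2 and 26.2% of all promoter peaks. Between 8 and 9 it was at 0 of 5 Psm, 2 of 7 Ube2 and 36.3% of all, and from 9 up at 2 of 3 Ube2 and 39.9% of all, with no Psm promoter. The Psm peaks had a median G+C content of 57.1% and the Ube2 peaks 69.3%. The part of sequence composition in the difference was not tested.

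The calls of the single replicates were compared by family as well. In ΔDL replicate 2, with 10.2 M tags, 22 of 27 promoter members were called (81.5%), beside 73.6% of all promoter peaks. They were 11 of 11 Psm and 11 of 16 Ube2 promoters (68.8%). The 5 without a call were Ube2a, Ube2q2, Ube2v1, Ube2l6 and Ube2d3, all among the 8 past 2-fold, and heights and calls come from the same tags. In ΔDL replicate 1, with 1.77 M tags, 6 of 27 were called (22.2%), beside 25.5% of all promoter peaks. Among them were Ube2z, Ube2d1, Psmd7, Ube2k and Psmd14. The same 6 were thus called in both ΔDL replicates, where 24.4% of all promoter peaks were. Psmd14 encodes the deubiquitinase of the regulatory particle, and its heights were level, 7.78 for KLF3 and 7.81 for ΔDL, with 6 and 25 KLF3 tags and 4 and 11 ΔDL tags.

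**Figure D4:**
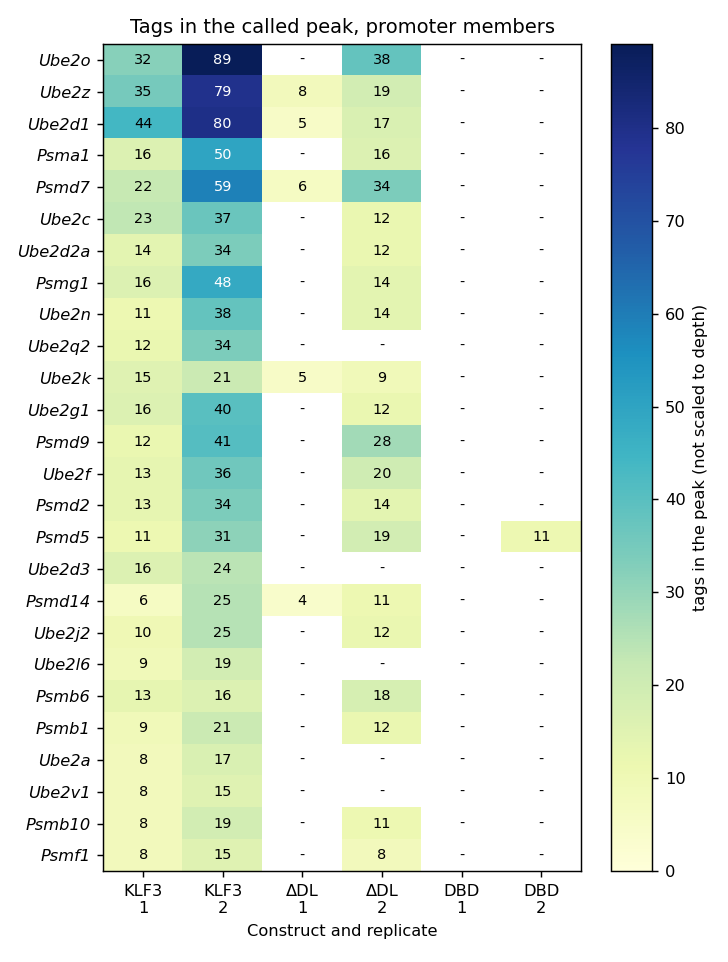
Tags in the called peak at 26 promoter members in each of the 6 replicate lists, not scaled to the depth of the list; a dash marks no call. KLF3 replicate 2 has a call at all 26, ΔDL replicate 2 at 21, ΔDL replicate 1 at 5, and DBD at Psmd5 alone.

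The zinc fingers alone were low at almost all of these promoters. DBD fell short of KLF3 by 2-fold or more at 24 of 27 promoter members, where 97.3% of all promoter peaks were, with a median difference of −2.64 beside −2.99 over all promoter peaks. Called in both DBD replicates were 0 of 27, against 1.46% of all promoter peaks. Among the Ube2 promoters 16 of 16 were past 2-fold, with differences from −4.36 at Ube2k to −1.98 at Ube2d3.

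The 3 exceptions were proteasome genes. Psmd5, an assembly chaperone of the regulatory particle, had 7.92 for KLF3, 8.02 for ΔDL and 7.31 for DBD, a difference of −0.61 for DBD (−1.37 to 0.08). It was the only promoter member with a call in a DBD replicate, 11 tags in replicate 2, beside 11 and 31 for KLF3 and 19 in ΔDL replicate 2. Psmb10, the inducible catalytic subunit of the immunoproteasome, had 7.21, 7.42 and 6.78, a difference of −0.43 (−1.39 to 0.42). Psmb6 had 7.58, 7.86 and 6.71, a difference of −0.87 (−1.84 to −0.07). The DBD heights of these 3 were the highest of the 27, against a median of 5.41 over all promoter peaks. Psmb10 and Psmb6 also had the lowest G+C content of the 27 peaks, 46.9% and 52.6%, whereas Psmd5 was at 64.8%. Scaled to the same median, DBD heights moved by −0.42, and Psmd5 at −1.03 and Psmb6 at −1.29 then passed 2-fold, leaving Psmb10 at −0.85.

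Viewed by gene, KLF3 peaks were found at some promoters of each family and not at others. With GENCODE protein-coding starts on mm9 and a promoter from 1000 bp upstream to 100 bp downstream, a peak listed for KLF3 lay at 15 of 36 Ube2 genes (41.7%), 13 of 50 Psm genes (26.0%) and 4587 of 22238 protein-coding genes (20.6%). Genes that are silent in fibroblasts were not removed from any of these sets, and the difference between the shares was not tested. Within the proteasome, genes were grouped by name alone, so the chaperone genes Psmd5 and Psmd9 count among the non-ATPases. Such a peak lay at 2 of 8 genes for alpha subunits, 4 of 11 for beta subunits and 0 of 6 for ATPases. It lay at 5 of 14 for non-ATPases (Psmd), 0 of 5 for activators and 1 of 4 for Psmg assembly chaperones. The inhibitor gene Psmf1 had one. A peak listed for ΔDL lay at 3 Psm and 3 Ube2 genes, together 6.98% of the 86 beside 5.23% of all protein-coding genes. A peak listed for DBD lay at 0 of the 86, beside 0.355% of all.

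Some of these promoters, 3 in all, carry another gene's name in the table and so are not among the 71 members. The peak between Tap1 and the immunoproteasome gene Psmb9, which share a promoter, had 9.12 for KLF3, 8.78 for ΔDL and 5.35 for DBD. This is higher for KLF3 than any of the 11 Psm promoter members. The peak named for Ss18l1 at the Psma7 promoter had 7.99, 7.32 and 3.94. The peak at the Ube2d3 promoter is named for the noncoding gene 4930539J05Rik and had 8.43, 6.75 and 4.09, and the member peak named Ube2d3, 615 bp into the gene, is a promoter peak only by its annotation to that noncoding transcript. With the authors' scaling the difference of ΔDL was −0.34 at Psmb9, −0.67 at Psma7 and −1.68 at Ube2d3. Ube2d3 already counts among the Ube2 promoters past 2-fold through its member peak. Psmb9 and Psma7 are not among the 11 Psm promoter members, and ΔDL was within 2-fold of KLF3 at both with the authors' scaling. Scaling to the same median moves ΔDL by −1.06 at these peaks, as at all others. They were not added to the counts by family.

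Further promoters of these genes were called in replicate lists without a peak in the table. In KLF3 replicate 2, with 18.1 M tags, 17 promoter peaks with a member name were called that overlap no peak of the table. Among them were the ATPase genes Psmc2, Psmc4 and Psmc5, the activator gene Psme2, and Psmb2, Psmb7, Psmb8, Psmd1 and Psmd3. In ΔDL replicate 2, with 5196 promoter peaks in all, 14 of 38 with a member name were outside the table. Psmc2, Psmc4, Psmd1 and Psmd3 were again among them. The shares of member-named peaks at promoters were 34.9% and 46.9% in the KLF3 replicates, 12.2% and 31.7% in ΔDL, and 0.0% and 4.17% in DBD. The shares over all called peaks were 20% and 31.0% in KLF3, 7.37% and 15.9% in ΔDL, and 1.59% and 2.80% in DBD. Both ranked the lists in the same order, and the member share was the higher in each KLF3 and ΔDL list. That difference was not tested.

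The other genes of the pathway, from a list of ubiquitin genes, activating enzymes, further E2 enzymes, shuttle factors, proteasome partners and ligases, had 14 promoter peaks at 14 of 54 genes. A peak listed for any construct lay in the GENCODE promoter of 21.4% of all protein-coding genes. That share assigns peaks by position and not by the peak's name. ΔDL was at least 2-fold lower at 7 of 14 (33.7% of all promoter peaks) and higher at 0 (0.854%), and DBD was at least 2-fold lower at 14 of 14 (97.3%), with medians of −1.02 and −3.36. Scaled to the same median, ΔDL was at least 2-fold lower at 13 of 14, beside 85.6% of all promoter peaks. The activating enzyme gene Uba1 had 8.98 for KLF3, 8.70 for ΔDL and 6.07 for DBD. Pomp, the proteasome maturation factor, had 9.03, 7.80 and 6.07, so its difference of −1.23 for ΔDL was larger than that of any Psm promoter. Nfe2l1, the transcription factor that raises proteasome gene expression when the proteasome is inhibited, had 8.76, 8.04 and 4.83. Among the ligase genes, Rbx1 had 9.74, 8.65 and 4.21 and Mdm2 8.28, 6.92 and 5.58. None of the 4 genes of the segregase Vcp and its cofactors had a peak, and these are too few to set against a share.

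Away from promoters the member peaks were of a different kind. The 44 other peaks had a median KLF3 height of 6.78, a median G+C content of 42.0% and a median distance of 29.7 kb from the named gene's start. The corresponding values over all other peaks were 6.98, 42.1% and 43.5 kb. The median conservation score was 0.04 for the 38 other members that have one and 0.06 over all such peaks. A centre beyond 100 kb was found for 14 of 44 (31.8%, against 31.7%), and such a peak has only the name of the nearest start. ΔDL was at least 2-fold higher than KLF3 at 17 of 44, where 35.9% of all other peaks were, and at least 2-fold lower at 4 of 44, where 10.2% were. DBD was at least 2-fold lower at 15 of 44 (41.3% of all other peaks) and at least 2-fold higher at 1 of 44 (4.09%). The median difference was 0.78 for ΔDL, beside 0.77 over all other peaks. Scaled to the same median it was −0.29, as it was over all other peaks. No member was then at least 2-fold higher (0.496% of all other peaks), and 12 were at least 2-fold lower (32.3%). The direction of ΔDL at these peaks thus depends on the scaling. For DBD the median was 0.20, beside 0.03 over all other peaks, and −0.22 when scaled.

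The other peaks divided by the constructs they were called for. The 14 listed for KLF3 alone had a median G+C content of 48.4%, and 10 of 14 (71.4%) held a KLF core in the 100 bp around the centre, as did 58.6% of such peaks in all. The 21 not listed for KLF3 had a median G+C content of 36.9%, and 2 of 21 (9.52%) held a core, against 8.69%. None of the 13 listed for DBD held one, against 7.22% of such peaks in all. At the 14 the median difference from KLF3 was −0.58 in ΔDL and −2.33 in DBD, and at the 21 it was 1.06 and 0.43. The choice by listing fixes the direction of these differences in part.

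**Figure D5:**
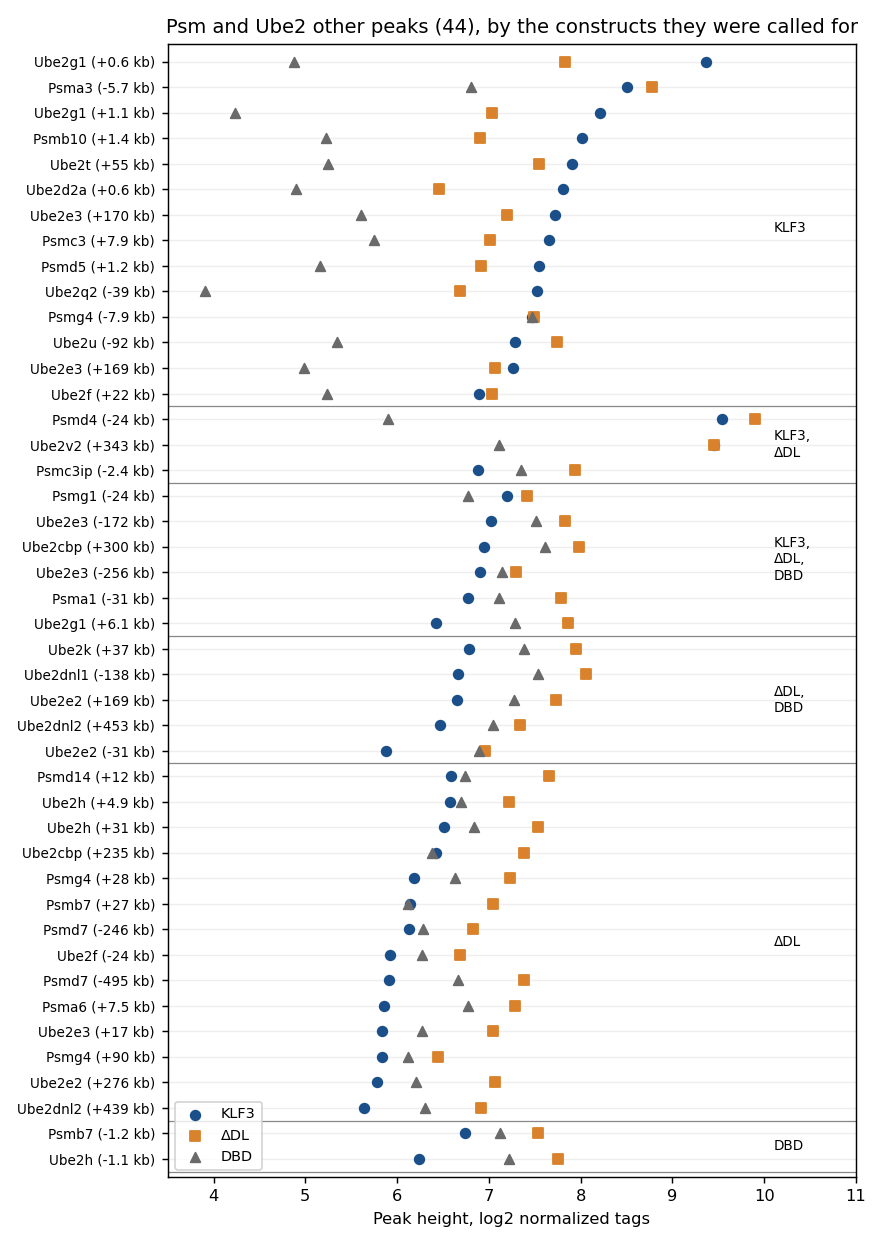
Peak heights (log2 normalized tags in 400 bp) of the 44 other members for KLF3 (circles), ΔDL (squares) and DBD (triangles), grouped by the constructs for which the peak is listed; the distance to the named gene's start is in brackets. For peaks listed for KLF3 alone DBD is lowest at 13 of 14, and for those listed for ΔDL, DBD or both ΔDL is highest at each peak. At Ube2v2 the KLF3 and ΔDL symbols coincide.

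Among the 5 highest of them for KLF3, 3 lay outside the genes they are named for and 2 in the first intron of Ube2g1. The peak named Psmd4, after the gene of a ubiquitin receptor of the regulatory particle, lies 24.3 kb upstream of it in an intron of another gene and within an LTR repeat. Its heights were 9.54 for KLF3, 9.90 for ΔDL and 5.90 for DBD, with 27 and 87 KLF3 tags, 9 and 54 ΔDL tags and no DBD call. The peak named Ube2v2 lies 343 kb from that gene and had 9.45, 9.45 and 7.11. Psma3, an alpha subunit gene, had an intergenic peak 5.69 kb upstream of its start with 8.50, 8.78 and 6.81. ΔDL was as high as KLF3 or higher at all 3 with the authors' scaling, and below it at all 3 when scaled to the same median.

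Ube2g1 carried 4 peaks and shows both kinds of site at 1 locus. Its promoter peak was followed by peaks 603 bp and 1121 bp downstream of the start, in a CpG island of the first intron, with heights of 9.36 for KLF3, 7.83 for ΔDL and 4.88 for DBD at the first and 8.21, 7.03 and 4.23 at the second. The first held 24 and 79 KLF3 tags and 13 tags in ΔDL replicate 2, and the second held 12 and 33 KLF3 tags. Both were listed for KLF3 alone, with ΔDL lower by −1.53 (−2.24 to −0.97) and −1.18 (−2.12 to −0.38), and the 4 other peaks past 2-fold lower in ΔDL also include Psmb10 in an intron at −1.11 and the first intron of Ube2d2a at −1.35. The fourth Ube2g1 peak lies 6.12 kb into the gene in the same intron and had 6.42, 7.86 and 7.28. It was called in all 6 replicate lists. Its tags numbered 6 and 13 with KLF3, 8 and 17 with ΔDL, and 11 and 13 with DBD. ΔDL was higher than KLF3 there by 1.44 (0.59 to 2.41), or by 0.38 when scaled. The 100 bp around the centres of the first intronic peak and of the last are shown on the plus strand of mm9, which is the strand of the gene, with KLF cores in capitals.
Ube2g1 first intronic peak, chr11:72421316-72421415: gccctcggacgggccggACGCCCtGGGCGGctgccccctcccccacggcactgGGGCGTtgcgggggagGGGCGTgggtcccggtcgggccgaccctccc
Ube2g1 last intronic peak, chr11:72426833-72426932: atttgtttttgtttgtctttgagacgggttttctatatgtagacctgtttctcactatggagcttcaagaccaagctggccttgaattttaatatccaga

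The first stretch holds 4 cores and its 400 bp peak has 79.1% G+C, and the last stretch holds none and its peak has 35.2%.

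Sites called in all 6 replicate lists made up 6 of the 44 other members (13% of all other peaks) and 0 of the 27 promoter members (0.898% of all promoter peaks). Besides the Ube2g1 site they were named for Psmg1, Psma1, Ube2cbp and, at 172 kb and 256 kb upstream, Ube2e3. Their KLF3 heights were low, from 6.42 to 7.20, and close to those of DBD, from 6.77 to 7.61. The intergenic peak named Psma1 had heights of 6.77, 7.78 and 7.11 for KLF3, ΔDL and DBD, with KLF3 lowest. Scaled to the same median, ΔDL and DBD differed from KLF3 there by −0.05 and −0.08, so this order also depends on the scaling. KLF3 had 12 and 14 tags there, ΔDL 11 and 14, and DBD 12 and 13. The Psmg1 site had 7.20, 7.42 and 6.77, with 13 and 15 KLF3 tags, 11 and 13 ΔDL tags and 14 and 12 DBD tags, not scaled to the unequal depth of the lists. None of the 6 held a KLF core within 100 bp around the centre, and only 8.5% of all other peaks listed for all 3 constructs did.

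Genes with both a promoter peak and another peak numbered 11, and those with 3 or more peaks 7. Ube2e3, an E2 gene with no promoter peak here, had 5, spread from 256 kb upstream to 170 kb downstream of its start. Psmd7 had a promoter peak and 2 listed for ΔDL alone, 246 kb and 495 kb upstream. At the farther of these, KLF3 was at 5.91, ΔDL at 7.38 and DBD at 6.66, a difference of 1.47 for ΔDL (0.43 to 2.67), or 0.41 when scaled.

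The other named genes with many peaks had distal ones in the main. Ube2h had 3 peaks, and the one 1.07 kb upstream of its start, listed for DBD alone within a LINE repeat, showed the largest rise in ΔDL of all members, with 6.24 for KLF3, 7.75 for ΔDL and 7.22 for DBD. That ΔDL height rests on peaks of which neither ΔDL replicate list has a call, while DBD had 12 and 8 tags. Psmg4, Ube2e2 and Ube2f also had 3 peaks each, and among these only Ube2f, the E2 enzyme for NEDD8, had one at its promoter (8.15, 7.86 and 4.88). The highest DBD heights among other members were 7.61 at the Ube2cbp site called in all lists, 7.54 at Ube2dnl1 and 7.51 at a Ube2e3 site. DBD was higher than KLF3 at each, by 0.66, 0.88 and 0.49, and by 0.24, 0.46 and 0.07 when scaled.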

How the data were processed

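Files used were a peak list per replicate (6 lists, 2 for each of 3 constructs), a merged list per construct (3 lists) and a table of all peaks. A deposited record stands for both replicates of its construct. Input libraries entered only through the authors' peak calling, and expression was not analysed here.

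The authors checked 50 bp reads with FastQC 0.10.1, aligned them to mm9 with Bowtie2 2.0.0, handled alignments with SAMtools 0.1.18 and called peaks on each replicate against its input with HOMER 4.1 (at least 5-fold over input, false discovery rate 0.001), which also annotated them with RefSeq. Heights are log2 values that the authors computed from tags in 400 bp of both replicates combined, scaled to 100 M tags (the totals were 23.3 M, 11.8 M and 16.0 M tags for KLF3, ΔDL and DBD). The deposited peak score of a replicate list is a signal, tags in the peak per 100 M. The deposited G+C and CpG columns are fractions of the peak sequence, and the deposited conservation value is a mean PhastCons score. Where 1 interval stands in both the table of all peaks and a merged list, its heights differed by at most 0.08 for KLF3, 0.12 for ΔDL and 0.08 for DBD.

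From these, whole tags behind heights and scores were recovered, differences of heights were computed, replicate calls were matched at 1 bp of overlap, and sequences and motifs were read from mm9 (NCBIM37) with GENCODE vM1 genes. G+C content was recomputed from mm9. A fold count takes a difference of at least 2-fold. No test was run, because heights pool the replicates, and differences in depth between replicates remain in the calls. Shares have 95% Wilson intervals, and medians have order-statistic intervals over peaks, which are not replicates.

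The members, the pathway list and the motifs were chosen with earlier results of these data known. Genes were named by a rule of rank: the 8 highest promoter peaks for KLF3, the 3 smallest and 3 largest drops in ΔDL, the 3 highest for DBD, the like among other peaks (5 highest, 3 largest rises and drops in ΔDL, 3 highest for DBD), genes with 3 or more peaks or with both kinds, sites called in all 6 lists, and promoter peaks annotated to another transcript. 1 promoter member and 1 gene of the pathway list count in totals and are not reported singly here. Further genes were named after their values were seen. Alternatives changed the fold, the scaling, the set of peaks, the overlap and the motif window. The code was tested on simulated data with known answers. Scripts ran in Python 3.11.15 with pandas 2.3.3, numpy 2.4.6, pysam 0.24.0, scipy 1.17.1 and matplotlib 3.10.9.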

Additional observations from a re-analysis of the deposited data

How the results depend on the processing

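No paired analysis was possible because the heights pool both replicates of a construct and no test was run. With each construct given an equal median height at peaks that all 3 were called for, ΔDL was at least 2-fold lower at 22 member promoters (reported 8), at 7 Psm (reported 0) and 15 Ube2 promoters (reported 8) and at 12 other members (reported 4), and at least 2-fold higher at 0 other members (reported 17). Its medians became −1.58 at promoters (reported −0.52) and −0.29 at other peaks (reported 0.78), and that of DBD at other peaks −0.22 (reported 0.20). At 1.5-fold the counts were 13 promoters lower in ΔDL, 2 of them Psm, and 26 other members higher and 7 lower. At 3-fold they were 2 promoters, both Ube2, and 0 and 0. Restricted to peaks listed for KLF3, 4 other members were higher in ΔDL, with medians of 0.02 for ΔDL and −1.93 for DBD. Within 10 kb, 4 were higher in ΔDL and 7 lower in DBD (reported 15), with medians of 0.15 and −0.84. With a KLF3 height of at least 7, 0 were higher in ΔDL, with medians of −0.36 and −2.34, and at a height of at least 8, 4 Ube2 promoters were lower in ΔDL. These restrictions leave fewer peaks. The shares of all peaks at the other folds and in the restricted sets are not given here, so these counts have no background beside them. Defining promoters by distance moved no count or median beyond its limit.

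With 1 replicate left out, member promoters called ranged from 26 to 27 for KLF3, 6 to 22 for ΔDL (22 without the shallow replicate 1) and 0 to 1 for DBD. In the upper 50% of each list 2 were called in both ΔDL replicates (reported 6). Replicate peaks are narrower than 200 bp, so that overlap was run as the whole replicate peak inside the 400 bp. The KLF core count of 22 became 13 with CACCC. Alternatives for the families were added after the data were seen. The 1.77 M tags of ΔDL replicate 1 limit what its absent calls show.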
